A study of Gallus gallus with 16 samples.

Results

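In the chick posterior eye, 46 genes were lower after 24 h of recovery from form deprivation than in every chick of the other groups. They were chosen on these measured values, out of 17108 genes in the deposited count table, of which 11334 reached 10 counts in at least 4 of the 16 libraries and were tested. The level of a gene is given as CPM, its read count divided by that library's sum of counts on genes and scaled to a common total. On the scale x = log2(CPM + 1), a gene was taken when the highest of the 4 chicks at 24 h lay below the lowest of the other 12 chicks and the 24 h mean lay at least 0.4 below each other group mean. In all, 57 genes met both conditions, and 11 of these were among 13 genes, FGL2 being one, that were set aside by name. Of the 46, 40 had a symbol. Because the choice used every comparison of 24 h with another group, those differences are given as values with their errors and without a test.

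RNA-seq was done on pooled layers of the posterior eye, retina, retinal pigment epithelium (RPE) and choroid together, from the right eyes of 16 male Leghorn/New Hampshire chicks, with 1 library per chick. The groups of 4 chicks each were No-Lens controls that were never occluded, and chicks whose right eye was covered with a translucent occluder for 7 days and collected at its removal (FDMR 0 h), after 6 h of normal vision (FDMR 6 h) or after 24 h of normal vision (FDMR 24 h). The labels give the age as post-hatch day 20 for the control, 0 h and 6 h groups and day 21 for the 24 h group, whereas the study's methods describe younger chicks, so the absolute age is uncertain. The 4 chicks of a group were picked from a larger group for comparable axial length. The 6 h group was collected in the afternoon of the day of removal, and the 24 h group was the only recovery group that had passed a night after it. Sampling hour, age by 1 day and time since removal therefore cannot be told apart as sources of a difference between 6 h and 24 h. By the study's account, the control, 0 h and 24 h groups were collected at about the same morning hour. Sampling hour was thus shared when 24 h was compared with the control or with 0 h, while age still differed by 1 day.

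The choroid is the vascular layer behind the RPE, and it thickens and thins as the eye adjusts its length to the visual image. The RPE rests on a basement membrane of laminins and collagens, to which its cells hold by integrins, and exchanges ions, water and nutrients between the retina and the choroid. Vessels of the choroid and of the pecten, the vascular comb that rises from the optic nerve head of birds, carry receptors for growth factors and for the proteases of blood clotting. The 40 named genes fell into these fields: 11 are receptors, ligands or signalling proteins, 6 belong to matrix and adhesion, 7 to the vessel wall and coagulation, 8 are peptidases, transporters, channels or metabolic enzymes, and 8 act on actin, in the nucleus or elsewhere.

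Depth was uneven. Counts on genes ranged from 1553717 in 24 h chick 29 to 4816425, with a median of 4016147 and a second lowest of 3039798. A single count was worth 0.644 CPM in chick 29 and 0.208 CPM in the deepest library. When all libraries were thinned to the depth of chick 29, the same rule found 25 genes, of which 18 were among the 46, so the length of the list depends on depth. Leaving out 1 chick at a time gave between 43 and 65 genes, and 36 of the 46 were found in all 16 of these settings. Leaving out a chick cannot undo the lack of overlap of a gene. Only the margin or the count filter could remove one of the 46, so their retention is in part fixed by the rule. Transcripts of RPE, photoreceptors, Mueller glia, endothelium and connective tissue, which the labelled tissue should hold, were all detected. In bulk tissue such as this, fewer cells of a type and less RNA per cell cannot be told apart.

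Over the 46 genes, the lowest of the other group means was a median of 2.15 times the 24 h mean, and for 24 genes it was at least 2 times. The genes were of modest abundance, with a mean over the 16 chicks of 1.63 to 242 CPM and a median of 19.8 CPM, against a median of 36.7 CPM over all tested genes. Centred on each gene's mean and averaged over the 46, x was 0.45 ± 0.19 (SD, n = 4) in the controls, 0.24 ± 0.25 at 0 h, 0.22 ± 0.30 at 6 h and -0.90 ± 0.12 at 24 h. The 24 h chicks were the most alike of any group on this scale. The rule puts a ceiling on them and a floor under all other chicks, so the spread within each group is not free of the choice. The thresholds cut through a continuum: 34 further genes had no overlap but missed the margin, and 118 met the margin but overlapped. Just inside the margin were GAS6 at 0.414 and a gene without a symbol at 0.402, and just outside it PUS10 at 0.398 and CAND2 at 0.396. Just inside the no-overlap limit were PIWIL1, with 0.005 between the nearest chicks, and STARD8 with 0.011, and just outside it AIM1 and PPFIBP1, each with a separation of -0.007, an overlap. In the opposite direction, 20 genes met the same pair of conditions.

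**Figure D1:**
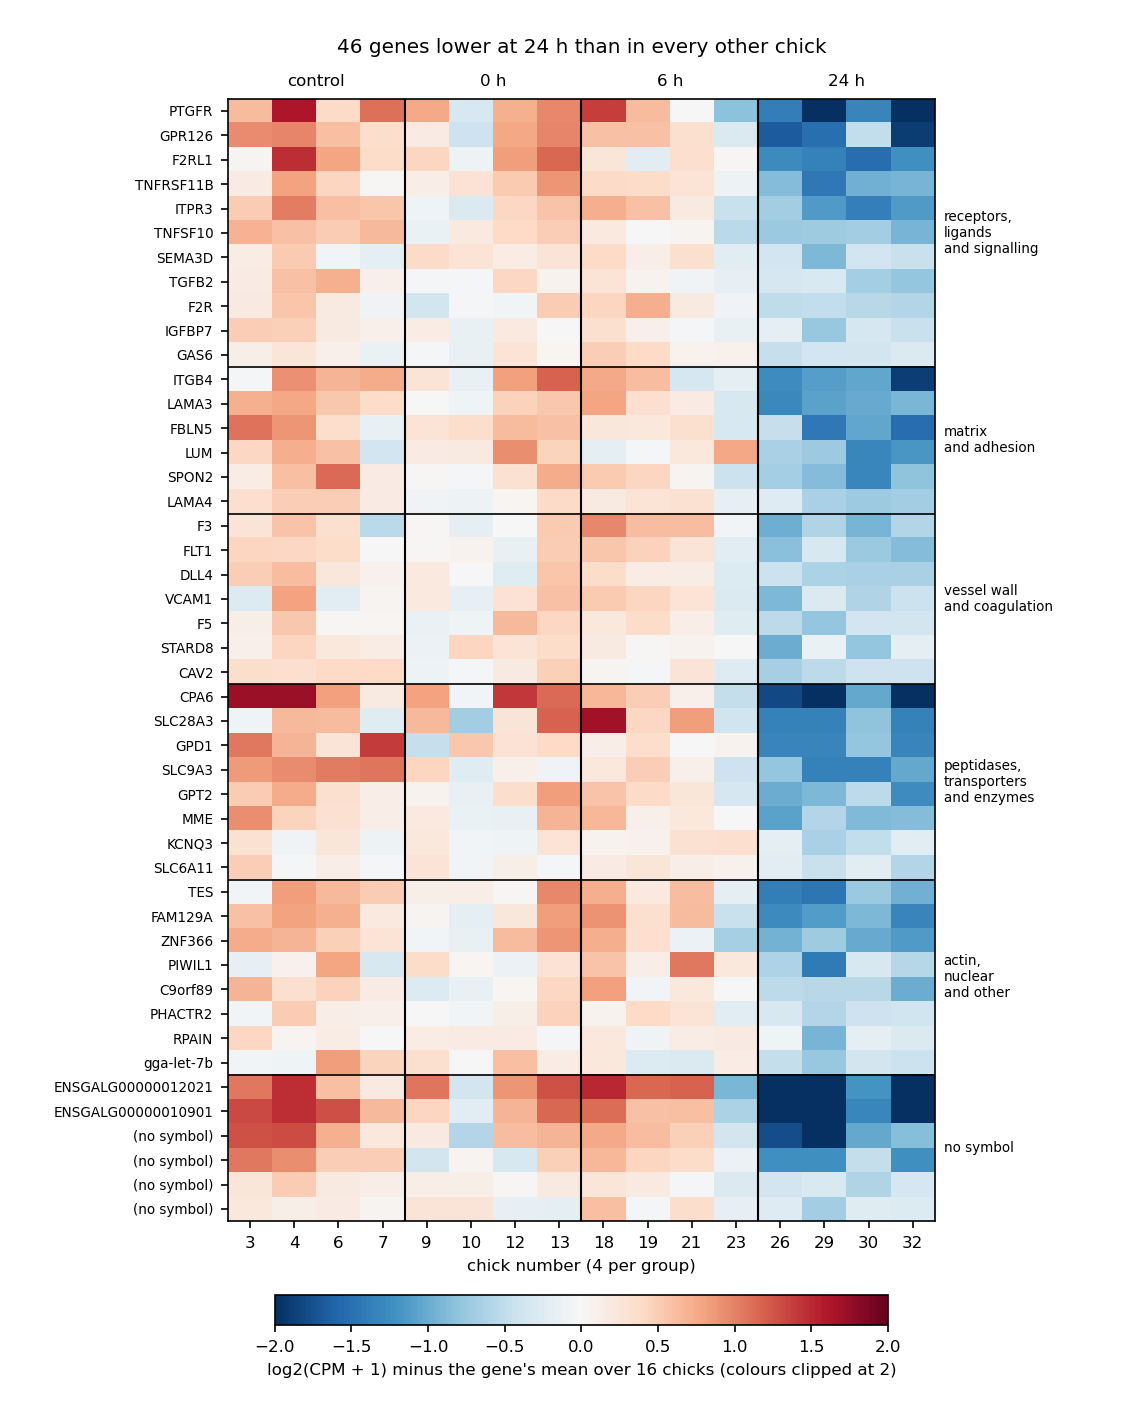
Level of the 46 genes (rows, by role) in each of the 16 chicks (columns, by group), as log2(CPM + 1) minus the gene's mean over all chicks, with red for higher and blue for lower. The 4 columns at 24 h are blue in nearly every row, and 6 h chick 23 is the lowest of the other 12 in 26 of the 46 rows.

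Of the 6 matrix and adhesion genes, 2 are laminin chains and 1 is a laminin receptor subunit. ITGB4 (ENSGALG00000002389), the integrin subunit that anchors epithelial cells to laminin at hemidesmosomes, measured 36.2, 70.8, 59.9 and 62.3 CPM in control chicks, 44.6, 33.4, 66 and 84.5 CPM at 0 h, 63.2, 57.4, 29 and 32.4 CPM at 6 h, and 14.8, 16.7, 17.4 and 9.3 CPM at 24 h. The first 3 groups overlapped each other over a wide range, and the highest 24 h chick was well under their lowest. Its log2 fold change at 24 h was -1.99 ± 0.33 (SE) against the control, -1.98 ± 0.32 against 0 h and -1.65 ± 0.33 against 6 h. LAMA3 (ENSGALG00000015056), a laminin chain of epithelial basement membranes, measured 141, 147, 126 and 111 CPM in control chicks, 85.5, 81.2, 119 and 125 CPM at 0 h, 149.8, 109, 96.7 and 68.3 CPM at 6 h, and 34.5, 40.5, 42.4 and 45.4 CPM at 24 h. The controls were narrow and high, 6 h chick 23 was the lowest of the 12, and the 24 h chicks lay close together. Its log2 fold change was -1.68 ± 0.20 against the control, -1.31 ± 0.20 against 0 h and -1.37 ± 0.20 against 6 h. LAMA4, a laminin chain of vessel basement membranes, had a smaller difference, with means of 73.2 ± 7.62, 59.1 ± 9.68, 63 ± 8.87 and 37.6 ± 6.32 CPM (SD, n = 4) in the order control, 0 h, 6 h and 24 h. In contrast ITGA6, the integrin subunit that pairs with ITGB4, was no member, at 77.1 ± 6.6 CPM at 0 h and 74.4 ± 11.5 CPM at 24 h (log2 fold change -0.01 ± 0.10, adjusted p = 0.988 by edgeR's quasi-likelihood test). For the other tested laminin chains, LAMA1, LAMA2, LAMA5, LAMB1, LAMB2, LAMC1 and LAMC3, the adjusted p by edgeR ranged from 0.17 to 0.941 at 24 h vs 0 h and vs 6 h.

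The other matrix genes were of lower level. FBLN5, which is needed to assemble elastic fibres, had means of 5.77 ± 2.42, 5.12 ± 0.73 and 3.84 ± 0.884 CPM in the control, 0 h and 6 h groups and 1.13 ± 0.769 CPM at 24 h. LUM, a proteoglycan that spaces collagen fibrils, had 8.21 ± 2.71, 8.65 ± 2.56 and 7.23 ± 2.55 CPM and then 2.66 ± 0.795 CPM. SPON2, a secreted matrix protein, had 27.8 ± 9.8, 22.7 ± 6.12 and 21.2 ± 6.13 CPM and then 9.43 ± 1.8 CPM. In these 3 genes the lowest other group mean was 2.25 to 3.39 times that at 24 h. DCN, a proteoglycan of the same family as LUM, was no member and had 148 ± 20.6 CPM at 0 h and 208 ± 52.1 CPM at 24 h (adjusted p = 0.322 by edgeR). FBLN2, no member either, went the other way, with 22.2 ± 7.54 and 9.56 ± 5.28 CPM (adjusted p = 0.131 by edgeR). Of 29 tested genes of elastic fibres and small proteoglycans that were no members, 10 had a log2 fold change below 0 at 24 h vs 0 h. Their median was 0.04.

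Among the receptors, PTGFR (ENSGALG00000008901), the receptor of prostaglandin F2-alpha, had one of the deepest differences. It measured 10.0, 20.7, 8.22 and 14.1 CPM in control chicks, 10.9, 4.64, 10.6 and 12.7 CPM at 0 h, 17.5, 9.93, 6.05 and 3.01 CPM at 6 h, and 1.72, 0.644, 1.83 and 0.532 CPM at 24 h. Summed over the 4 chicks of a group, it had 154 counts at 6 h and 18 at 24 h. The ratio per total count was 6.92, with a 95% counting interval of 4.24 to 12. Such intervals, here and for the genes below, cover counting error only and leave out the spread between chicks. They are no test, because the rule chose the genes on these values. GPR126, an adhesion receptor that is required for myelination by Schwann cells in zebrafish and mouse, had means of 25.2 ± 5.29, 20.7 ± 8.62, 18.8 ± 5.01 and 5.43 ± 3.15 CPM in the order control, 0 h, 6 h and 24 h. Chick 30 was the highest of the 24 h group at 10.1 CPM, just below the 10.7 CPM of 0 h chick 10.

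ITPR3 (ENSGALG00000003149) encodes a calcium release channel of the endoplasmic reticulum that opens downstream of receptors such as PTGFR. It measured 60.4, 86.6, 64.5 and 62.1 CPM in control chicks, 39.7, 34.2, 56.3 and 62.9 CPM at 0 h, 70.1, 63.7, 48.1 and 30.8 CPM at 6 h, and 25.8, 18.7, 15.8 and 18.6 CPM at 24 h. The lowest chicks outside 24 h were again 6 h chick 23 and 0 h chick 10. Its paralogs, measured in the same chicks, were no members: ITPR1 had 355 ± 23.1 CPM at 0 h and 349.7 ± 20.7 CPM at 24 h, and ITPR2 41.3 ± 6.91 and 33.6 ± 6.08 CPM. Neither paralog passed edgeR's quasi-likelihood test (adjusted p = 0.998 and 0.604).

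Both protease-activated receptors on the list lie next to each other on chromosome Z in the RefSeq annotation of assembly GRCg7b. F2RL1 (ENSGALG00000014984), which trypsin-like proteases cleave, measured 3.34, 10.6, 6.25 and 4.38 CPM in control chicks, 4.63, 2.9, 6.45 and 8.3 CPM at 0 h, 3.94, 2.59, 4.28 and 3.24 CPM at 6 h, and 0.738, 0.644, 0.458 and 0.797 CPM at 24 h. These are 59 counts at 6 h and 9 at 24 h over 4 chicks each, a ratio of 5.3 with a counting interval of 2.61 to 12.2. F2R, the thrombin receptor, differed less, at 13.3 ± 2.67, 11.7 ± 3.36, 14.6 ± 3.69 and 7.47 ± 0.255 CPM (control, 0 h, 6 h, 24 h). F2R was close to even across the 24 h chicks, from 7.18 to 7.72 CPM, and the nearest chick of the other groups, 0 h chick 9, had 8.44 CPM.

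The tumour necrosis factor family gave a ligand and a receptor that binds it. TNFRSF11B (ENSGALG00000016114), osteoprotegerin, is a secreted decoy receptor for TNFSF11 and for TNFSF10. It measured 39, 61.4, 47 and 35.3 CPM in control chicks, 38.4, 42.6, 50.4 and 64.6 CPM at 0 h, 45.8, 45.3, 42.3 and 32.4 CPM at 6 h, and 18.7, 12.2, 17.4 and 17.8 CPM at 24 h. No order among the first 3 groups is visible in these values, whose means were 45.7 ± 11.5, 49 ± 11.5 and 41.5 ± 6.23 CPM. Its log2 fold change at 24 h was -1.41 ± 0.20 against the control, -1.51 ± 0.20 against 0 h and -1.27 ± 0.20 against 6 h.

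TNFSF10 (ENSGALG00000009179), the death-receptor ligand TRAIL, had another course. It measured 32.3, 30.1, 28.3 and 31.4 CPM in control chicks, 17.7, 22.6, 26.1 and 28 CPM at 0 h, 22.6, 19.4, 20.4 and 13.2 CPM at 6 h, and 11.3, 11.6, 11.7 and 9.83 CPM at 24 h. The controls did not overlap with any recovery group, and each later group had a lower mean. The rule did not use the difference of 6 h from the control, though it put a floor under the chicks of both groups. At 6 h TNFSF10 fell by 0.70 on the log2 scale against the control (SE 0.16, adjusted p = 0.0185 over all tested genes by edgeR's quasi-likelihood test, lower in 4 of 4 chicks). That call was lost without control chick 7 (adjusted p = 0.0516), without 6 h chick 19 (0.0519) or without 6 h chick 23 (0.057), and over all alternatives the adjusted p ranged from 0.00454 to 0.057.

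The remaining signalling genes differed by less. SEMA3D, a secreted guidance cue, had means of 43.1 ± 9.73, 47.3 ± 3.31, 44.3 ± 7.95 and 27.2 ± 4.42 CPM in the order control, 0 h, 6 h and 24 h. TGFB2, a transforming growth factor beta ligand, had 26 ± 5.66, 21 ± 3.46, 19.9 ± 2.83 and 13.3 ± 2.3 CPM. IGFBP7, a secreted protein of vessel walls, was the most abundant gene of the list and measured 332, 329, 268 and 252 CPM in control chicks, 262, 214, 269 and 237 CPM at 0 h, 296, 253, 232 and 213 CPM at 6 h, and 209, 139.7, 187 and 174 CPM at 24 h. The gap between the nearest chicks was narrow there, from 209 CPM in 24 h chick 26 to 213 CPM in 6 h chick 23. GAS6, the ligand of the TYRO3, AXL and MERTK receptors through which RPE cells take up outer segments, had the smallest ratio, 1.35, with 54.7 ± 6.97 CPM at 0 h and 40.6 ± 2.01 CPM at 24 h.

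**Figure D2:**
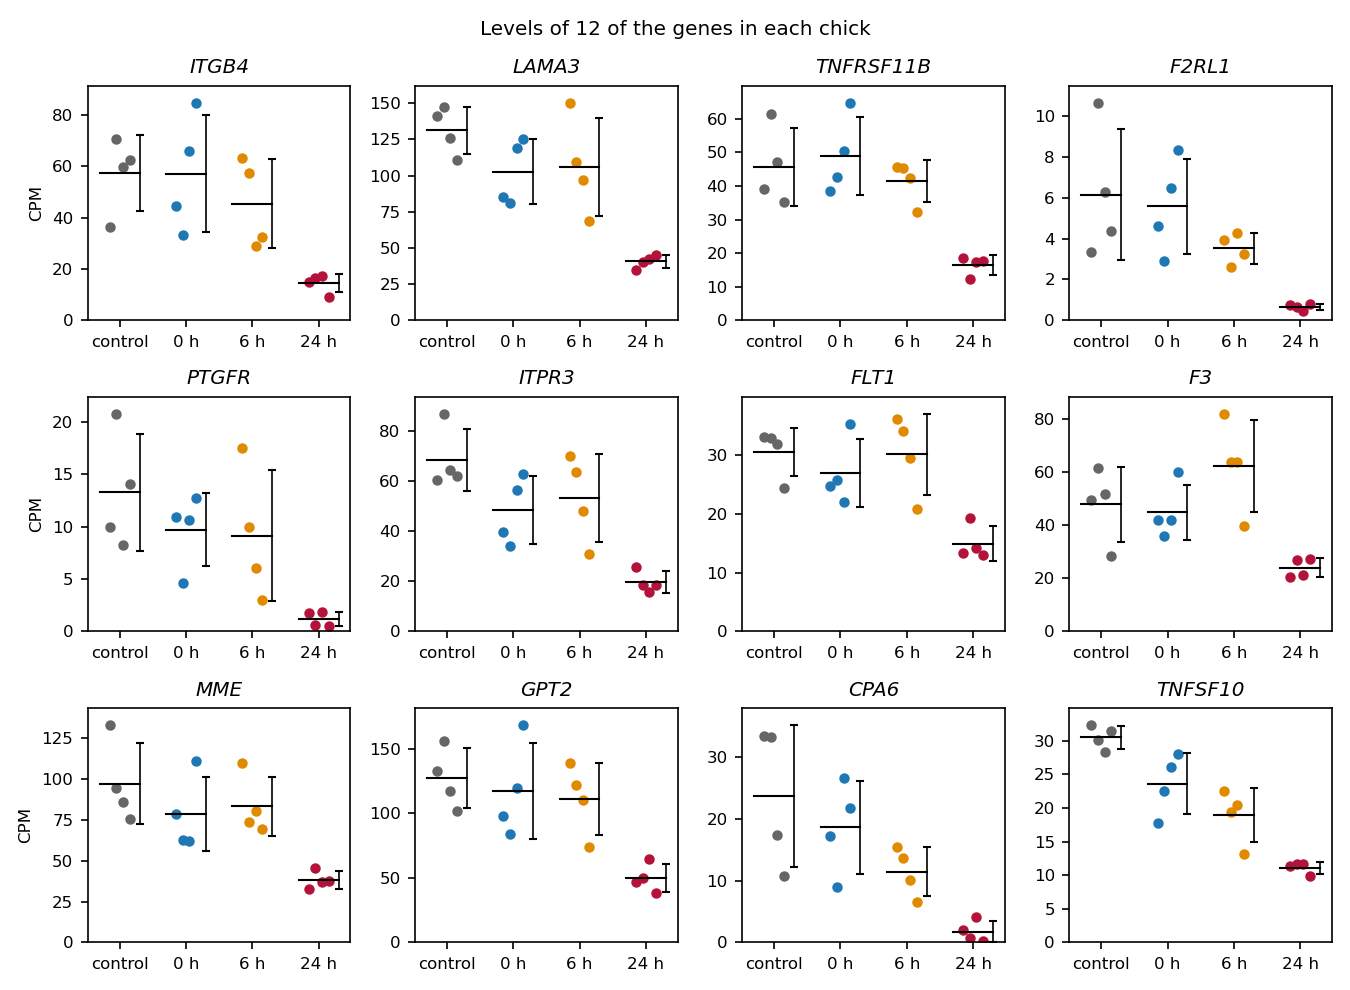
CPM of 12 of the genes in every chick (points), with the mean of the 4 chicks of a group (line) and ±1 SD (bar to its right); each panel starts at 0 CPM. In every panel the 4 points at 24 h lie below all others, while the control, 0 h and 6 h points overlap except for TNFSF10, whose control points lie above all others.

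Genes of the vessel wall had small and even differences, with the lowest other group mean 1.47 to 1.87 times that at 24 h. FLT1 (ENSGALG00000017091), a receptor of vascular endothelial growth factor, measured 33.1, 32.9, 31.9 and 24.5 CPM in control chicks, 24.8, 25.8, 22 and 35.3 CPM at 0 h, 36.2, 34.1, 29.5 and 20.8 CPM at 6 h, and 13.3, 19.3, 14.2 and 13 CPM at 24 h. Chick 29, the shallowest library, was the one nearest to the other groups. DLL4, the Notch ligand of sprouting endothelium, had means of 14 ± 2.51, 11.9 ± 3.05, 11.6 ± 2.25 and 6.72 ± 0.61 CPM (control, 0 h, 6 h, 24 h). VCAM1, the endothelial adhesion molecule that leukocytes bind, had 32.2 ± 12.7, 34.5 ± 7.44, 34.7 ± 8.06 and 19.4 ± 3.5 CPM, with 23.2 CPM in 24 h chick 29 next to 23.4 CPM in 6 h chick 23. CAV2, a component of caveolae, had 24.9 ± 0.536, 21.2 ± 4.2, 19.2 ± 3 and 13.1 ± 1.18 CPM, and STARD8 had 11 ± 1.27, 11.2 ± 1.93, 9.79 ± 0.574 and 6.39 ± 2.09 CPM.

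A pair of clotting genes was on the list. F3 (ENSGALG00000005619), tissue factor, the cell-surface starter of coagulation, measured 49.6, 61.8, 52 and 28.4 CPM in control chicks, 42.2, 36, 41.9 and 60.0 CPM at 0 h, 81.9, 63.9, 64 and 39.8 CPM at 6 h, and 20.7, 27, 21.3 and 27.4 CPM at 24 h. It was 1 of 9 genes with the highest of the first 3 means at 6 h, but the difference of 6 h from 0 h, 0.47 ± 0.22 on the log2 scale, did not pass edgeR's test (adjusted p = 0.424). F5, the cofactor of the enzyme that makes thrombin, had 100.4 ± 18.7, 105 ± 28.3, 95.8 ± 16.5 and 61.4 ± 7.75 CPM.

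The defining markers of endothelium had overlapping summed levels in all groups. The summed level of the 11 markers in the count table ranged from 475 to 577 CPM in control chicks and 454 to 558 CPM at 0 h. It ranged from 435 to 513 CPM at 6 h and 478 to 512 CPM at 24 h. None of the 9 tested markers was called at 24 h vs 0 h by edgeR (median log2 fold change -0.05). KDR, the main receptor of vascular endothelial growth factor and no member, was the largest part of the summed level, with 252 ± 20.5 CPM at 0 h and 239 ± 33.3 CPM at 24 h. Smaller markers went both ways. ESAM had 8.69 ± 4.99 and 13.3 ± 7.27 CPM, and PLVAP ranged from 11.7 to 35.4 and from 27.1 to 57.9 CPM. CDH5 had 91.2 ± 11.5 and 80.4 ± 10.6 CPM, EMCN 43.7 ± 7.9 and 37 ± 4.42 CPM, and ERG 5.99 ± 1.2 and 5.2 ± 1.65 CPM. VWF, the clotting factor stored in endothelial cells, overlapped and was no member either, yet had 187 ± 43.9 CPM at 0 h, 239 ± 40.3 CPM at 6 h and 103 ± 28.1 CPM at 24 h (log2 fold change -0.83 ± 0.18, adjusted p = 0.0305 at 24 h vs 0 h, and -1.19 ± 0.18, adjusted p = 0.00143 at 24 h vs 6 h). The 5 smooth muscle markers in the count table had a summed level of 559 to 856 CPM in control chicks and 749 to 927 CPM at 0 h. They had 358 to 641 CPM at 6 h and 380.4 to 569.8 CPM at 24 h. Mean x of the 4 tested ones was 5.71, 6.28, 5.33 and 5.69 in the order control, 0 h, 6 h and 24 h. By edgeR, 1 of these 4 was called lower at 24 h vs 0 h, where 0.529% of all tested genes were called lower. Their median log2 fold change was -0.62. The part of the smooth muscle cells in these results was not tested.

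Among the named groups, peptidases, transporters and enzymes had the largest ratios, with a median of 4.38. CPA6 (ENSGALG00000015558), a carboxypeptidase that binds to the extracellular matrix, measured 33.4, 33.3, 17.4 and 10.8 CPM in control chicks, 17.2, 8.99, 26.7 and 21.8 CPM at 0 h, 15.5, 13.6, 10.1 and 6.48 CPM at 6 h, and 1.97, 0.644, 4.13 and 0.266 CPM at 24 h. It varied by more than 3 times among the controls alone, and the 6 h group was already below most controls without passing edgeR's test (log2 fold change -1.06 ± 0.40 against the control, adjusted p = 0.285, and -0.70 ± 0.41 against 0 h, adjusted p = 0.562). MME (ENSGALG00000010331), neprilysin, which degrades peptides at the cell surface, measured 133, 94.7, 85.9 and 75.9 CPM in control chicks, 78.9, 62.7, 62.1 and 111 CPM at 0 h, 109.7, 73.8, 80.4 and 69.7 CPM at 6 h, and 32.5, 45.7, 37.1 and 37.5 CPM at 24 h. Its log2 fold change was -1.37 ± 0.21 against the control, -1.06 ± 0.21 against 0 h and -1.14 ± 0.21 against 6 h.

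Both transporters of the apical epithelial membrane were near the limit of detection at 24 h. SLC28A3, which carries nucleosides into cells with sodium, had 2 counts over the 4 chicks at 24 h against 32 in the controls, a ratio of 14.4 with a counting interval of 3.66 to 124, and 3 of the 4 chicks at 24 h had none. SLC9A3, which exchanges sodium for protons, had 3 counts at 24 h against 26 at 0 h, a ratio of 7.76 with an interval of 2.38 to 40.1. Its controls were even, from 3.62 to 4.38 CPM, and lay above all chicks at 0 h and 6 h, whose highest value was 2.59 CPM. GPD1, which interconverts glycerol 3-phosphate and dihydroxyacetone phosphate, had 2 counts at 24 h against 30 at 6 h, a ratio of 12.1 with an interval of 3.08 to 105. For these low genes the depth allows a wide range of ratios.

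GPT2 (ENSGALG00000004158), the mitochondrial alanine aminotransferase, was far better measured, at 133, 156, 117 and 102 CPM in control chicks, 97.5, 83.8, 119.6 and 168 CPM at 0 h, 139, 122, 110.3 and 73.6 CPM at 6 h, and 46.5, 49.6, 64.9 and 38.5 CPM at 24 h. Chick 30, the highest of the 24 h group, still lay below 6 h chick 23. Of the channel and neurotransmitter genes, KCNQ3, a subunit of the M-current potassium channel of neurons, had 11.4 ± 1.6 CPM at 0 h and 8.04 ± 1.39 CPM at 24 h, and SLC6A11, a GABA transporter, 31.8 ± 3.55 and 23.2 ± 2.95 CPM. Both were among the smallest differences, at 1.42 and 1.37 times.

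Actin-linked genes included TES, a LIM-domain protein of focal adhesions, with 12.9 ± 3.36, 11.4 ± 4.29, 11.6 ± 3.48 and 3.52 ± 1.07 CPM (control, 0 h, 6 h, 24 h), and PHACTR2, which binds actin and protein phosphatase 1, with 51.4 ± 9.2, 50.1 ± 8.45, 50.0 ± 9.23 and 33.3 ± 2.66 CPM. TES and CAV2 are neighbours on chromosome 1 in GRCg7b. FAM129A (ENSGALG00000004812), a stress-induced regulator of translation, measured 148, 173, 163 and 113 CPM in control chicks, 103, 86.2, 115 and 176 CPM at 0 h, 185, 124, 153 and 71.8 CPM at 6 h, and 40.1, 45.1, 52.3 and 38.8 CPM at 24 h. The first 3 groups were widely spread and overlapped, and the 24 h chicks were close together. ZNF366, a zinc finger corepressor of transcription, had 33.7 ± 4.87, 30.2 ± 10.9, 25.4 ± 10.3 and 11.4 ± 1.56 CPM. RPAIN, which imports replication protein A into the nucleus, had 18.3 ± 1.31 CPM at 0 h and 13.1 ± 3.27 CPM at 24 h, and C9orf89 17.8 ± 4.08 and 10.8 ± 1.7 CPM. PIWIL1, a protein of the germline piRNA pathway, had 29 counts in the controls and 11 at 24 h, a ratio of 2.37 with an interval of 1.15 to 5.25. The row named gga-let-7b (ENSGALG00000018241) had 29 counts at 6 h and 14 at 24 h. Their ratio per total count was 1.68, with a counting interval of 0.858 to 3.43. So few counts fix the ratio poorly, and this interval is no test either.

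The largest gap in mean log2(CPM + 1), 2.98 between 24 h and the lowest other group, was that of ENSGALG00000012021, which has no symbol. It measured 15.6, 21.4, 11.2 and 8.08 CPM in control chicks, 15.8, 5.22, 13.8 and 18.3 CPM at 0 h, 21.7, 16.8, 17.1 and 3.24 CPM at 6 h, and 0.738, 0, 2.52 and 0.266 CPM at 24 h. Over 4 chicks each, these were 211 counts at 0 h against 15 at 24 h, which gives a ratio of 12.6 with a counting interval of 7.46 to 22.9. ENSGALG00000010901, also without a symbol, measured 122, 135, 119 and 75.9 CPM in control chicks, 65.1, 41.2, 77.4 and 108 CPM at 0 h, 105, 72.3, 73.3 and 30.8 CPM at 6 h, and 8.37, 7.72, 18.8 and 9.3 CPM at 24 h. Its level followed the mean of the other 45 genes most closely of all, with r = 0.99 over the 16 chicks. LAMA3 and FAM129A came next (r = 0.98 each), then GPT2 (0.97), ITPR3 and GPR126 (0.96 each). These correlations hold the step at 24 h that chose the genes and are a description only.

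The differences among the control, 0 h and 6 h groups did not enter the rule. Their values did, because the rule put a floor under every chick of these groups. A gene that already reached the 24 h level in 1 of them could not be taken. The counts below are therefore not free of the choice. At 0 h vs control, none of the 46 genes was called by edgeR's quasi-likelihood test at a false discovery rate of 5%, where 0.00882% of all tested genes were called higher and 0.0176% lower. At an unadjusted p under 0.05 there were 7 of the 46 (15.2%), beside 4.01% of all genes. DESeq2 and limma-voom called none either. Most of the 46 leaned to the lower side after occlusion without passing the test: 38 had a log2 fold change below 0 (82.6%, beside 48.5% of all tested genes), with a median of -0.18 beside 0.005 for all genes. The lowest was SLC9A3 at -1.25 ± 0.37 (adjusted p = 0.835 by edgeR), and ENSGALG00000010901 had -0.63 ± 0.30.

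At 6 h vs 0 h, none of the 46 was called, where 2.00% of all tested genes were called higher and 1.19% lower. Only 2 of the 46 (4.35%) had an unadjusted p under 0.05, beside 11.7% of all genes, and DESeq2 and limma-voom again called none. The genes were evenly split, with 23 below and 23 above 0 and a median of 0.00, beside 50.0% below 0 for all tested genes. Of the 46, 33 lay within 0.25 of 0 on the log2 scale. The middle 50% of all tested genes ran from -0.13 to 0.11, so such closeness to 0 was common. At 6 h vs control, TNFSF10 was the 1 gene called, lower, where 1.55% of all tested genes were called higher and 1.18% lower. There, 36 of the 46 were below 0 (78.3%, beside 49.5% of all tested genes), with a median of -0.22 beside 0.002. An unadjusted p under 0.05 was found for 9 of the 46 (19.6%) beside 9.46% of all genes. The 3 comparisons share samples pairwise, and the 46 genes varied together between chicks, so these counts are not those of independent genes.

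The values at 24 h had medians of -1.35 against the control, -1.19 against 0 h and -1.15 against 6 h, and their signs are set by the rule.

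**Figure D3:**
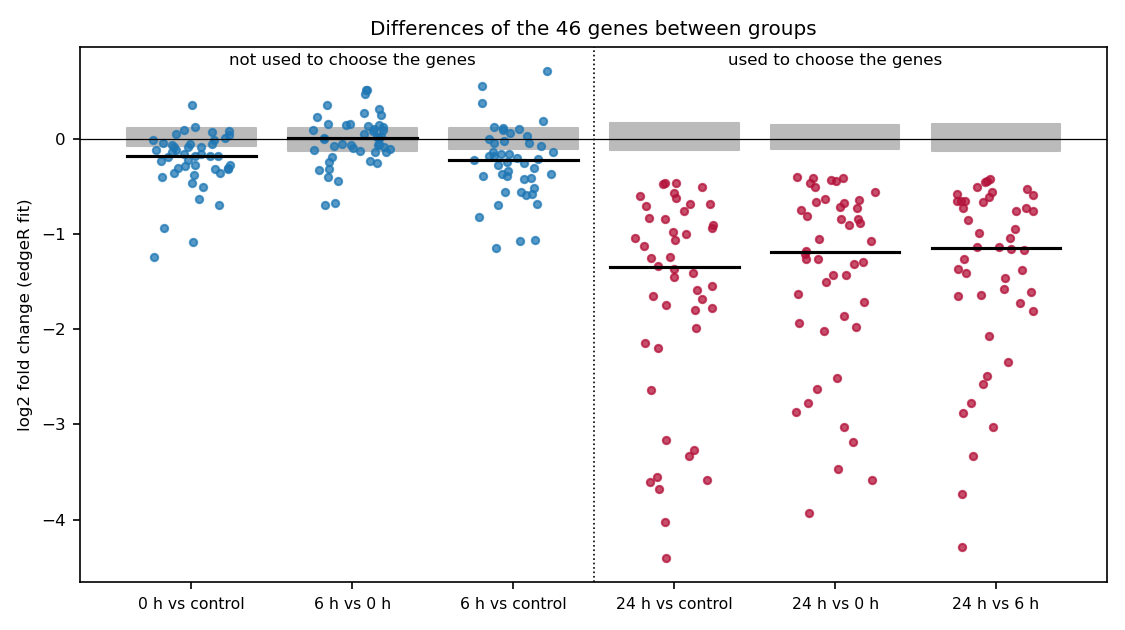
Log2 fold change of each of the 46 genes (points) in the 6 comparisons of groups, with their median (line) and the middle 50% of all 11334 tested genes (grey box). On the left are comparisons whose differences the choice of the genes did not use, though it put a floor under all their chicks. Their medians are -0.18, 0.00 and -0.22. On the right, where the choice fixed the sign, the medians are -1.35, -1.19 and -1.15.

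Chicks of the same group differed in these genes together. Among the 12 chicks outside 24 h, deviations from the group means of x had a median correlation of 0.57 over all pairs of those 41 genes whose mean count was 10 or more (middle 50% of pairs 0.30 to 0.71, 88.7% above 0), beside a median of 0.00 over pairs of 10944 tested genes. Without 6 h chick 23 the median was 0.46 over the remaining 11 chicks. Genes at either end of this scale were GPT2, at 0.98 with the mean of the others, and LUM, KCNQ3 and RPAIN at 0.02, -0.04 and -0.18. The rule chose the genes on values of these same 12 chicks, under which it put a floor. Pairs of all tested genes were not chosen in this way, so the medians are not on the same footing. The correlations are a description only. Points share a library and its depth, and log2 counts on genes had r = 0.24 with the mean of the 46 genes within groups.

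Chicks on the low side of their group were found in each of the first 3 groups. Chick 23 at 6 h had the lowest mean of the 12, at -0.20 on the centred scale, and was the lowest of them for 26 of the 46 genes. Chick 10 at 0 h followed at -0.05 and then chick 9 at 0 h at 0.14, each the lowest for 5. Chick 7, the lowest of the controls, had 0.21 and was the lowest for 4. All 4 chicks at 24 h lay further down, from -1.02 to -0.76. Leaving out 6 h chick 23 added 20 genes to the list, with ALDH6 (22.6 CPM or more in the other 11 chicks, 11.3 CPM in chick 23 and at most 19.2 CPM at 24 h), GALNT12, HKDC1 and PRCP among those with the widest margins.

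The same variation was seen in the 13 genes set aside by name, whose mean had r = 0.93 with that of the 46 within groups. Of these 13, 11 met both conditions of the rule in the same chicks, so they are no independent set. The means of x of the 13 were 5.75, 5.23, 5.19 and 3.18 in the order control, 0 h, 6 h and 24 h, a step that the rule sets for those 11. Of 19 marker lists, the 4 tested leukocyte markers came closest (r = 0.90 within groups). The 5 leukocyte markers in the count table had a summed level of 97.8 to 129.8 CPM in control chicks and 97.8 to 113 CPM at 0 h. They had 102 to 114 CPM at 6 h and 83 to 134 CPM at 24 h. Within groups, markers of bipolar cells and of cones ran the other way (r = -0.67 and -0.57). The list whose mean x at 24 h lay furthest below the lowest other group was that of optic nerve head and pecten glia, with 3.99, 3.94, 3.84 and 3.33 in the same order. Its summed level overlapped, at 88.2 to 129 CPM at 0 h and 90.1 to 114 CPM at 24 h, and AQP4, its most abundant gene, had 68.3 to 72.1 CPM and 68.2 to 87.7 CPM. The list also holds PAX2, with 6.86 ± 3.7 CPM at 0 h and 1.88 ± 1.5 CPM at 24 h (adjusted p = 0.0902 by edgeR, and 0.0287 against 6 h). The 3 tested striated muscle markers had means of x of 4.30, 4.17, 4.33 and 3.79, and the lowest median log2 fold change of the 19 lists at 24 h vs 0 h (-0.99, none of the 3 called by edgeR). The list's summed level was 221 to 236 CPM at 0 h and 258 to 287 CPM at 24 h. Nearly all of that sum was ACTN2, at 209 to 225 and 255 to 278 CPM. ACTA1 had 7.06 to 9.97 and 2.29 to 7.08 CPM, and TNNT3 0.58 to 2.35 and 0.266 to 1.48 CPM. The other markers of this list were below 1 CPM at both times. The part of leukocytes, optic nerve head tissue and striated muscle in the 46 genes was not tested.

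**Figure D4:**
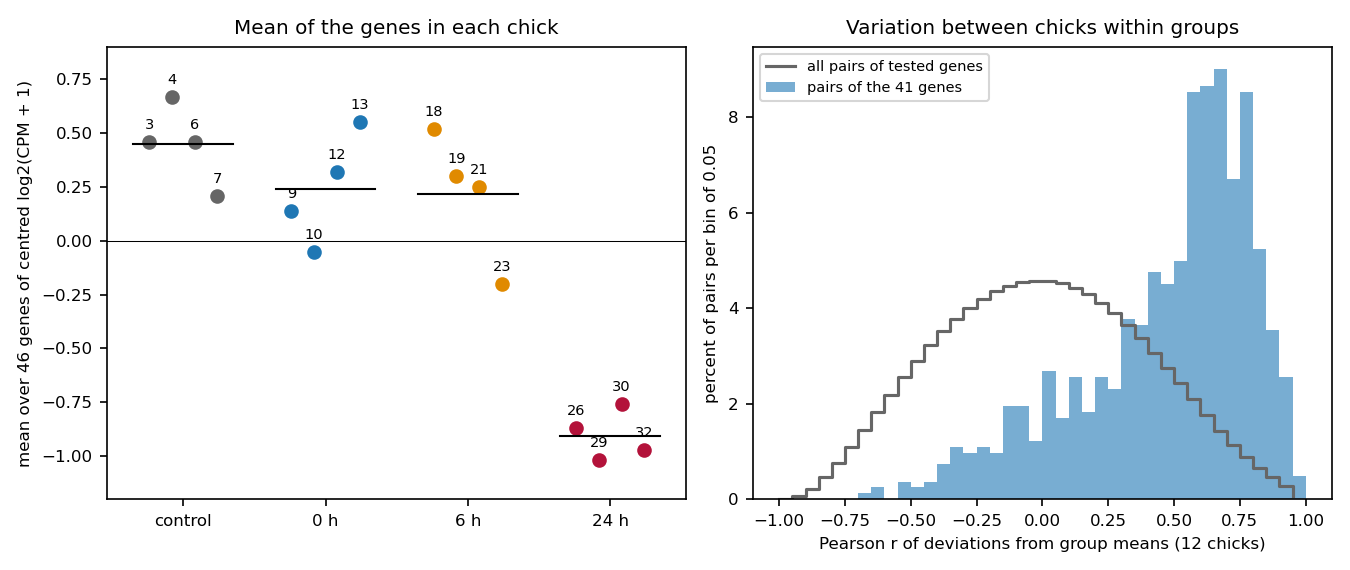
Left, mean over the 46 genes of log2(CPM + 1) centred on each gene's mean, for every chick (points with chick numbers) and group (line at the mean). Right, percent of gene pairs per bin of correlation of deviations from group means over 12 chicks, for the 41 better measured genes (bars, median 0.57) and all tested genes (line, median 0.00).

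Relatives of the 46 genes were looked at through 13 lists of genes of the same families and pathways, such as basement membrane and adhesion or TNF superfamily ligands and receptors. They held 246 tested genes that were not on the list. At 24 h vs 0 h, 3 of the 246 were called higher and 4 lower, where 0.591% of all tested genes were called higher and 0.529% lower, and the median log2 fold change was 0.00. Lower were PODN, VWF, ACTN1 and MITF, and higher were CHAD, PROS1 and ALDH1A2. At 24 h vs 6 h, 2 were called higher and 8 lower, where 0.794% and 1.15% of all tested genes were called, with a median of 0.01. DESeq2 called 5 higher and 13 lower at 24 h vs 0 h, and 3 higher and 14 lower at 24 h vs 6 h. The shares of all tested genes above are those of edgeR. DESeq2's own shares are not given here, so its counts cannot be set against a background. Because genes that met the rule were taken out of these lists first, the counts describe what was left of each family. The shares of all tested genes still hold the genes that met the rule. Counts and shares are therefore not on the same footing, least of all for genes called lower.

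Over all tested genes, 46 of 11334 were members. The lists were made from families that the members belong to, so the number of members in a list follows from its making. It is no result about the family. Within these lists, the calls by edgeR were spread over several families. In basement membrane and adhesion, 3 of 33 tested genes were members, and none of the other 30 was called at 24 h vs 0 h, while ITGAV, the alpha-v integrin, was the 1 called lower at 24 h vs 6 h (-0.38). For coagulation and the vascular surface, 5 of 19 tested genes were members and VWF was the only other one called lower, beside PROS1, the anticoagulant protein S, which was higher at 24 h vs 0 h (0.45). ACTN1, which crosslinks actin, was lower in both comparisons, with 292 ± 22.1 CPM at 0 h, 327 ± 15.9 CPM at 6 h and 226 ± 6.87 CPM at 24 h. ALDH1A2, an enzyme of retinoic acid synthesis, went the other way at 24 h vs 0 h, with 102 ± 8.86 and 334 ± 57.5 CPM (adjusted p = 8.47e-06 by edgeR), and had 296 ± 50.8 CPM at 6 h.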

How the data were processed

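Poly-A RNA libraries of 16 chicks, 4 per group, were analysed with the chick as replicate, and groups came from the sample labels. The authors trimmed reads with cutadapt and Trimmomatic, aligned them to galGal4 with TopHat2 and Bowtie2, and deposited whole read counts per gene from HTSeq, without normalization. The strand option and the annotation version are not given in the sources used here, so overlapping genes and near-identical copies are uncertain. The 6 rows that name no gene held 41.9% to 45.9% of a library's total and were left out. Symbols came from the table for 13771 genes and from RefSeq accessions for 37, and 3300 had none.

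Group differences came from 1 fit of all 16 libraries with edgeR 4.0.16 (quasi-likelihood test, TMM factors, Benjamini-Hochberg over 11334 genes) in R 4.3.3. DESeq2 1.42.0, limma 3.58.1 (voom), RLE factors, other filters, fits of only the compared groups, thinning and leaving out chicks were alternatives. P-values judge a group difference against the spread between chicks within groups, which the main fit estimated over all 4 groups together. The genes and lists were chosen with earlier results of these data known. All 40 members with a symbol were named, with the nearest genes outside the thresholds. Relatives outside the 46 were named after their values were seen. The rule and the plots used pandas 2.3.3 and matplotlib 3.10.9 under Python 3.11.15.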

Additional observations from a re-analysis of the deposited data

Results flagged for a closer look

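Each of the 46 genes was looked at in each group of 4 chicks for a value far from the other 3, by Dixon's ratio of gap to range. Of 184 such sets 13 stood out, and 9 of the 13 were in the 24 h group. For independent, normally distributed values, about 1 in 20 groups would be flagged. These genes varied together, and the rule limits their values. A set with counts in only 1 chick is always flagged. The number flagged therefore cannot be set against that rate.

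At 24 h, chick 29, the shallowest library, was far below the other 3 chicks in TNFRSF11B (12.2 CPM, the others 17.4 to 18.7), SEMA3D (20.6 CPM, the others 28.4 to 29.8) and a gene without a symbol (1.93 CPM, the others 2.92 to 2.98). Chick 26 was above the others in LAMA4 (47 CPM, the others 33.7 to 35.4) and DLL4 (7.63 CPM, the others 6.38 to 6.44), and chick 32 was below them in C9orf89 (8.24 CPM, the others 11.5 to 11.8). In GPD1 and SLC28A3 (0.458 CPM each) and in a gene without a symbol (0.688 CPM), chick 30 was the only 24 h chick with any count, so the other 3 were at 0.

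Outside 24 h, control chick 7 was low in FLT1 (24.5 CPM, the others 31.9 to 33.1). At 0 h, chick 13 was low in RPAIN (16.4 CPM, the others 18.8 to 19.1) and high in TES (17.9 CPM, the others 8.79 to 9.57). At 6 h, chick 23 was low in ENSGALG00000012021 (3.24 CPM, the others 16.8 to 21.7).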

How the results depend on the processing

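The number of genes meeting the rule was 40 with TMM factors, 48 with a pseudocount of 0.5, 52 without the filter, 49 with a filter at 1 CPM and 33 with a margin of 0.6. Thinned to the shallowest library it was 25, of which 18 were among the 46, and without 1 chick it ranged from 43 to 65. The highest counts came without 6 h chick 23 or 24 h chick 26 (65 each), 24 h chick 30 (64) or 24 h chick 32 (62). With a chick left out, the no-overlap condition is easier to meet. The calls among the 46 genes stayed at 0 for 0 h vs control and 6 h vs 0 h under all 14 alternatives of each. At 6 h vs control they ranged from 0 to 1 without 1 chick, and the log2 fold change of TNFSF10 from -0.79 to -0.55. Of the 246 relatives, DESeq2 called 18 at 24 h vs 0 h (5 higher, 13 lower) in place of 7, and 17 at 24 h vs 6 h (3 higher, 14 lower) in place of 10. The share of all tested genes that DESeq2 called is not given here, and the cause of the difference was not tested. Without 24 h chick 29 the counts by edgeR were 5 and 7. No paired analysis was possible because the groups share no chick numbers. Depth limits the genes of a few CPM most, since 1 count in chick 29 equals 0.644 CPM.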
